A study of Mus musculus with 3 samples.

Results

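B cells of mouse non-small cell lung cancer were profiled by single-cell RNA sequencing. Each RNA molecule captured from a cell was counted as 1 unique molecular identifier (UMI). The cells were chosen by measured values: a cell was taken as a B cell if its UMIs of Cd79a, Cd79b and Ms4a1 summed to at least 3 and if it held no UMI of Cd3e, Cd3d or Cd3g (T cells), of Csf3r or G0s2 (neutrophils) or of C1qa, C1qb or C1qc (macrophages). The rule kept 4784 of 29513 cells (16.2%), of which 2323 came from the AI-Exo library, 1393 from the PD-L1 library and 1068 from the PBS library. The labels give the tissue and these 3 library names, with 1 library in each group. The series' title speaks of exosomes that inhibit autophagy, and its design text of sequencing after a drug treatment. The sources used here do not say which agents stand behind the names AI-Exo and PD-L1, nor do they give doses, times, strain, age, tumour model or the number of animals per library. With 1 library per group no difference between groups has a replicate check, so no test was made, and all intervals given are 95% intervals that cover counting error only. Genes are called higher or lower by size alone.

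B cells recognise antigen with a surface antibody, which signals through the Cd79a and Cd79b chains, and they present antigen to T cells on MHC class II. After activation they can switch antibody class in germinal centres or turn into plasma cells, which secrete antibody and fold it in an enlarged endoplasmic reticulum. In lung tumours B cells are found among other immune cells and in lymphoid aggregates. Type I interferon acts on B cells, as on most cells, through a receptor present on the cell surface and switches on a common set of antiviral genes.

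The cells fitted their name. Pax5, the factor that fixes B cell identity, stood at 417 UMIs per 1000000 UMIs of the B cells (CPM) in AI-Exo, 417 CPM in PD-L1 and 408 CPM in PBS. Ebf1, an early B lineage factor, stood at 2591 CPM in AI-Exo, 2721 CPM in PD-L1 and 2777 CPM in PBS. Neither gene was used by the rule, and both differed little between libraries. Cells just inside the threshold, with 3 marker UMIs, numbered 218, and 98.2% of them had an Ebf1 UMI and 61.5% a Pax5 UMI. Cells just outside it, with 2 marker UMIs and otherwise passing, numbered 176, and 94.9% of them had an Ebf1 UMI and 60.2% a Pax5 UMI. The threshold therefore leaves out some cells that carry B cell RNA. The exclusion of cells with T cell, neutrophil or macrophage UMIs took away 27.2% of the candidates in AI-Exo, 31.5% in PD-L1 and 28.5% in PBS. Median depth was 3822 UMIs and 1554 genes per B cell in AI-Exo, 3591 UMIs and 1480 genes in PD-L1, and 3239.5 UMIs and 1381 genes in PBS.

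Across the series each matrix held 32285 genes, and cells had median totals of 4425 UMIs in AI-Exo, 3948 in PD-L1 and 4380 in PBS. AI-Exo and PD-L1 shared 33 cell barcodes, AI-Exo and PBS shared 26, and PD-L1 and PBS shared 23. B cells held 10723055 UMIs in AI-Exo, 5916071 in PD-L1 and 4499887 in PBS. Free RNA was estimated to make up no more than 1.23% of the UMIs of B cells in AI-Exo, 1.39% in PD-L1 and 1.64% in PBS. These limits come from Pf4, S100a8 and Arpp21, genes of other cells that were rarest in B cells relative to droplets without a cell. In B cells Pf4 stood at 1.77 CPM in AI-Exo and Arpp21 at 1.78 CPM in PBS, so those 2 limits rest on few UMIs. The limits carry no interval and are rough estimates. Among 11 clusters of B cells, B8 (97 cells) was led by genes of other cells, namely Mgp, Gzma, Lyz2, Chil3 and Ccl5, and had a median of 9370 UMIs and a median doublet score of 0.151. B10 (30 cells) was led by Igha and Jchain and had a median of 20145.5 UMIs per cell. Both clusters were kept, and values without them are given beside many results. The largest cluster was B6 in AI-Exo, B4 in PD-L1 and B2 in PBS. Because the clusters were built from genes compared below, their sizes are not compared.

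B cells made up a larger share of the AI-Exo library than of the others. Their share of all cells was 22.2% (interval 21.4% to 23.02%) in AI-Exo, 14.4% (13.7% to 15.1%) in PD-L1 and 11.4% (10.8% to 12.1%) in PBS, and no interval overlapped another. AI-Exo over PBS gave a ratio of 1.95 (1.81 to 2.09), PD-L1 over PBS 1.26 (1.16 to 1.36) and AI-Exo over PD-L1 1.55 (1.45 to 1.65). A share depends on how many other cells a library holds. Among cells with no UMI of Cd3e, Cd3d or Cd3g, B cells made up 31.9% in AI-Exo, 22.3% in PD-L1 and 18.8% in PBS, and the ratio of AI-Exo over PBS was 1.70 (1.58 to 1.83). Without the exclusion of cells with T cell, neutrophil or macrophage UMIs the shares were 30.5% in AI-Exo, 20.98% in PD-L1 and 15.96% in PBS. The order of the libraries was the same under all 3 counts.

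**Figure D1:**
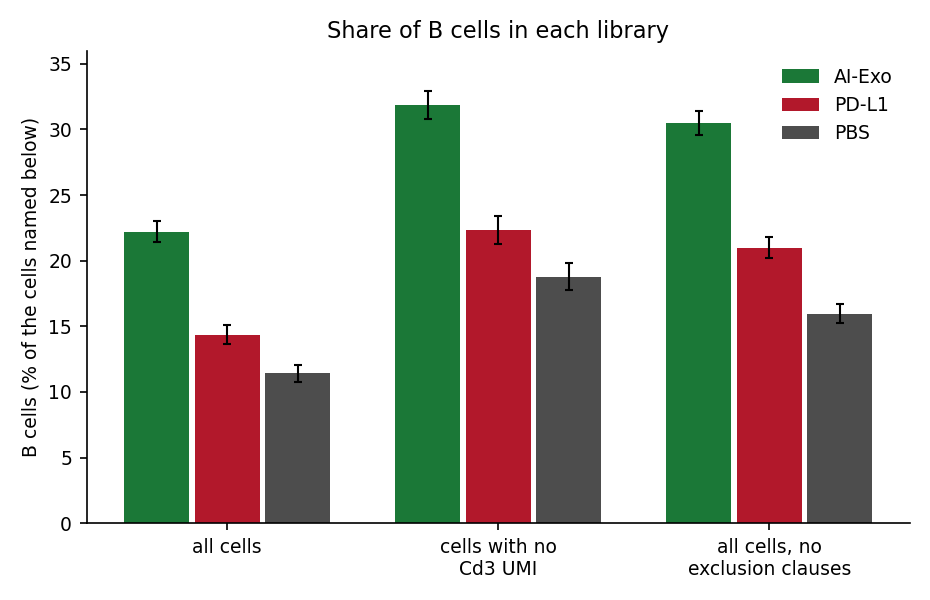
Share of B cells in the AI-Exo, PD-L1 and PBS libraries, in percent of all cells and of cells with no Cd3 UMI, with 95% exact binomial intervals that cover counting error only. Of all cells, 22.2% were B cells in AI-Exo, 14.4% in PD-L1 and 11.4% in PBS, and the AI-Exo share was the highest by both counts.

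Levels were compared as log2 ratios of CPM + 10 between libraries over 7601 genes that averaged 10 CPM or more, and a gene was called past a ratio of 1.5. Adding 10 CPM pulls the ratios of low genes toward 0. For AI-Exo over PBS, 36 genes (0.474%) were higher and 78 genes (1.03%) lower, together 114 genes (1.5%). For PD-L1 over PBS, 61 genes (0.803%) were higher and 95 genes (1.25%) lower, together 156 genes (2.05%). For AI-Exo over PD-L1, 44 genes (0.579%) were higher and 59 genes (0.776%) lower, together 103 genes (1.36%). The comparisons share libraries, so they are not independent of each other. Many called genes came from few cells, and how many differed by direction. At least 50% of a gene's UMIs lay in the top 1% of B cells for 21 of the 36 genes higher and 30 of the 78 lower in AI-Exo over PBS. The same held for 6 of the 61 higher and 51 of the 95 lower in PD-L1 over PBS, and for 41 of the 44 higher and 4 of the 59 lower in AI-Exo over PD-L1. Without B8 and B10, 14 of the 36 higher genes and 41 of the 78 lower genes of AI-Exo over PBS were still past 1.5, as were 42 of the 61 and 22 of the 95 of PD-L1 over PBS, and 4 of the 44 and 54 of the 59 of AI-Exo over PD-L1. The genes higher in PD-L1 than in PBS were thus mostly spread over many B cells, and so were the genes lower in AI-Exo than in PD-L1.

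Many type I interferon genes were higher in B cells of PD-L1 than in those of PBS. Of 45 genes of the interferon list, 37 were measured, and all 37 had a log2 ratio above 0 in PD-L1 over PBS. With 19 members higher at 1.5 and 0 lower, against 0.803% of all measured genes higher, the median of the list was 0.59, beside 0.01 for all measured genes. In AI-Exo over PBS the median of the list was -0.05, with 1 member higher (Ifih1) and 1 lower (Ly6c2), against 0.474% higher and 1.03% lower among all genes. In AI-Exo over PD-L1 the median was -0.70, with 23 members lower and 1 higher, against 0.776% and 0.579% of all genes. Summed over the list, levels were 2617 CPM in AI-Exo, 4702 CPM in PD-L1 and 2617 CPM in PBS. Of the members not measured, 6 averaged under 10 CPM, and the antiviral GTPases Mx1 and Mx2 were not analysed here.

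Among regulators and sensors of the response, Irf7 differed most. Irf7, the factor that drives transcription of interferon alpha genes, stood at 18.0 CPM (15.5 to 20.7) in AI-Exo, 61.2 CPM (55.0 to 67.8) in PD-L1 and 17.8 CPM (14.1 to 22.1) in PBS. Its log2 ratio was 1.36 for PD-L1 over PBS, the largest of the list, and 0.01 for AI-Exo over PBS. AI-Exo thus lay near PBS and PD-L1 above both. Zbp1, a sensor of Z-form nucleic acids, stood at 35.6 CPM in AI-Exo, 85.2 CPM in PD-L1 and 37.3 CPM in PBS. Usp18, which removes Isg15 from proteins and dampens interferon receptor signalling, stood at 9.05 CPM in AI-Exo, 24.2 CPM in PD-L1 and 15.6 CPM in PBS, with a log2 ratio of 0.42 for PD-L1 over PBS that did not pass 1.5. Ifih1, an RNA sensor also called Mda5, stood apart from the list with 46.0 CPM in AI-Exo, 19.1 CPM in PD-L1 and 15.1 CPM in PBS. Its log2 ratio for AI-Exo over PBS was 1.16, with 78.5% of its AI-Exo UMIs in the top 1% of cells, and 0.54 without B8 and B10.

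Among effector genes the differences were of several sizes. Ifi27l2a, an interferon-inducible gene, stood at 388 CPM (376 to 400) in AI-Exo, 1058 CPM (1032 to 1085) in PD-L1 and 430.0 CPM (411 to 450) in PBS. With every cell thinned to 1000 UMIs, 26.9% of B cells in AI-Exo, 55.5% in PD-L1 and 24.2% in PBS had an Ifi27l2a UMI, which left out 5 shallower cells in AI-Exo, 3 in PD-L1 and 0 in PBS. Unthinned, 59.0% of B cells in AI-Exo, 85.1% in PD-L1 and 51.6% in PBS had one. By the rough limits given above, free RNA could add 4.78 CPM of Ifi27l2a in AI-Exo, 11.7 CPM in PD-L1 and 5.50 CPM in PBS, well under these levels. Rtp4, an interferon-induced membrane protein gene, stood at 16.04 CPM in AI-Exo, 57.0 CPM in PD-L1 and 16.9 CPM in PBS, a log2 ratio of 1.32 for PD-L1 over PBS. Ifi213, Ifi214, Ifi206 and Ifi209 belong to the p200 family of interferon-inducible genes, which lie in a cluster of similar copies, so that reads may be split among them. Ifi213 stood at 63.2 CPM in AI-Exo, 152.6 CPM in PD-L1 and 63.1 CPM in PBS, and Ifi206, named by its rank and not in the list, at 36.3 CPM in AI-Exo, 95.2 CPM in PD-L1 and 42.0 CPM in PBS. Parp14, a mono-ADP-ribosyltransferase, stood at 57.7 CPM in AI-Exo, 110.2 CPM in PD-L1 and 46.9 CPM in PBS. Slfn5, of the Schlafen family, stood at 27.7 CPM in AI-Exo, 67.1 CPM in PD-L1 and 27.6 CPM in PBS. Every one of these genes was higher in PD-L1 than in both other libraries, with intervals that did not overlap. Trim30a, of the tripartite motif family of antiviral and regulatory proteins, stood at 95.7 CPM in AI-Exo, 203 CPM in PD-L1 and 112 CPM in PBS.

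Further members past 1.5 in PD-L1 over PBS were Bst2, Ifi214, Xaf1, Oasl2, Dhx58, Phf11b, Ifi209 and Oas2, with log2 ratios from 0.63 to 0.98. Some classical members differed less. Isg15, a ubiquitin-like modifier, stood at 37.7 CPM in AI-Exo, 55.9 CPM in PD-L1 and 33.8 CPM in PBS, just past 1.5 at a log2 ratio of 0.59 for PD-L1 over PBS. Ifit1, which binds viral RNA, stood at 18.9 CPM in AI-Exo, 20.8 CPM in PD-L1 and 19.1 CPM in PBS, a log2 ratio of 0.08 for PD-L1 over PBS. Ifit3, its family member, stood at 12.6 CPM in AI-Exo, 44.6 CPM in PD-L1 and 16.2 CPM in PBS, a log2 ratio of 1.06, though it shares sequence with Ifit3b. Epsti1 stood at 107.3 CPM in AI-Exo, 132 CPM in PD-L1 and 128 CPM in PBS, the smallest log2 ratio of the list at 0.04. The members thus differed widely among themselves. Ly6a, the stem cell antigen Sca-1, stood at 290 CPM in AI-Exo, 439 CPM in PD-L1 and 291 CPM in PBS, a log2 ratio of 0.58 that stopped just short of 1.5. Ly6c2, a surface antigen of monocytes and some lymphocytes, stood at 21.4 CPM in AI-Exo, 65.2 CPM in PD-L1 and 44.0 CPM in PBS, with at least 51.3% of its UMIs in the top 1% of cells in each library.

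**Figure D2:**
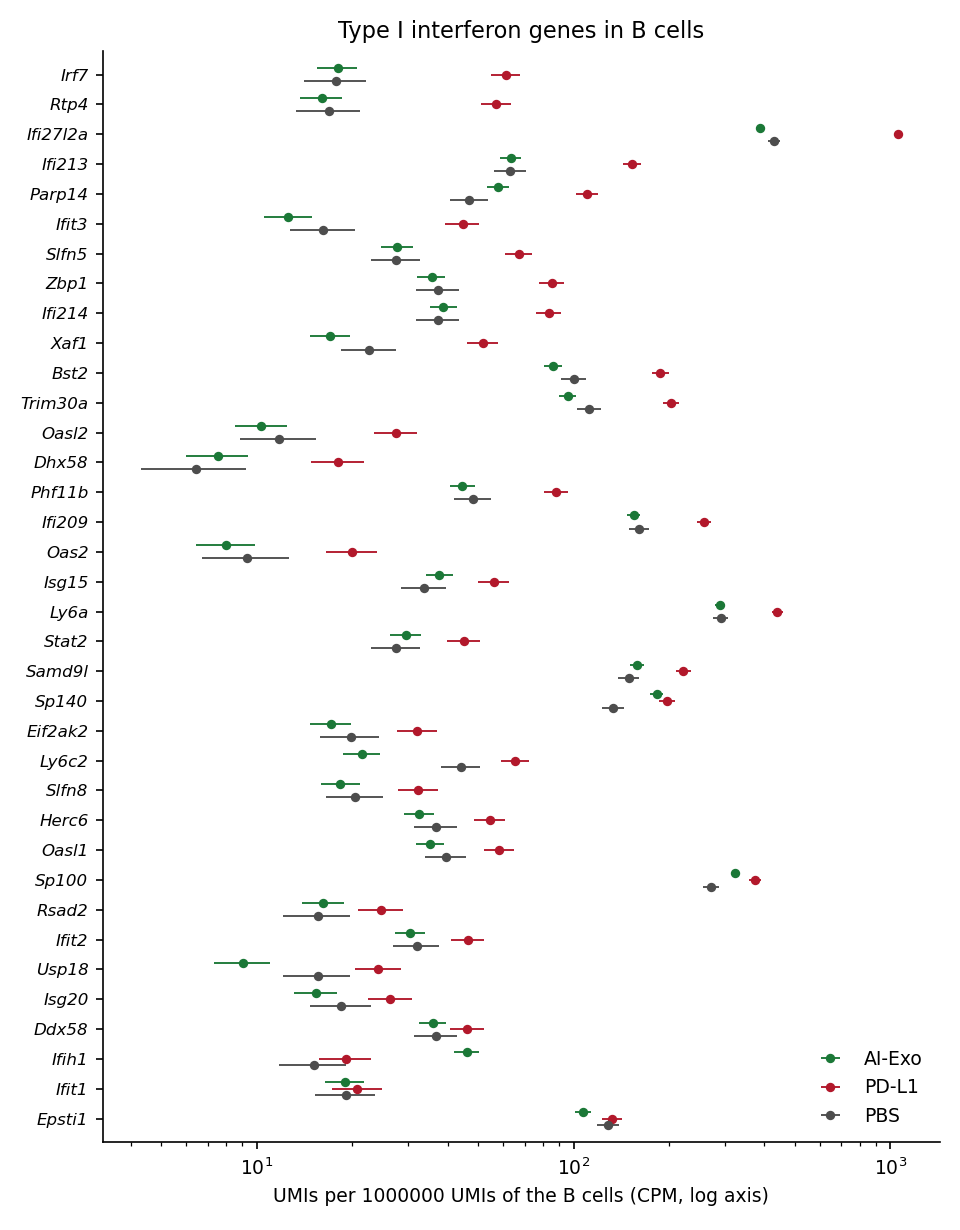
Levels of measured type I interferon genes in B cells of the AI-Exo, PD-L1 and PBS libraries, in CPM on a log axis, with 95% Poisson intervals that cover counting error only. For most genes the PD-L1 value lies to the right of the AI-Exo and PBS values, as for Irf7 at 61.2 CPM in PD-L1 against 18.0 CPM in AI-Exo and 17.8 CPM in PBS, whereas Ifih1 is highest in AI-Exo.

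To show the letters behind the counts of motifs, promoters of 4 members were read from RefSeq (GRCm38.p6), with GAAA NN GAAA, the core of the interferon-stimulated response element, in capitals, or its complement TTTC NN TTTC (N any base). The 160 bases before the annotated start are shown 5′ to 3′ on the strand of the gene for Ifi213 (chr1:173599273-173599432, minus strand), Ifit3 (chr19:34583369-34583528, plus strand), Slfn5 (chr11:82951942-82952101, plus strand) and Isg15 (chr4:156200819-156200978, minus strand). All 4 genes were past 1.5 in PD-L1 over PBS. Ifit3 has 2 matches and Isg15 has 3 that overlap each other.
Ifi213: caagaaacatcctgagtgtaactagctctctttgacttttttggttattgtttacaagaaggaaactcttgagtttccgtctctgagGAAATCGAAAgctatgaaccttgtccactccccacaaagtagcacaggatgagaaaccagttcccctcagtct
Ifit3: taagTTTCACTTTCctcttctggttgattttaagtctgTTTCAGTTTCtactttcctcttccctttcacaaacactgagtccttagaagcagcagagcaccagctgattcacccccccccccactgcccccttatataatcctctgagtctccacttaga
Slfn5: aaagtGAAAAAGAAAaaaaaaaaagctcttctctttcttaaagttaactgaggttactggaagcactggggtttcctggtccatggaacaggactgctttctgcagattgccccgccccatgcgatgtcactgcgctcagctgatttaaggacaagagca
Isg15: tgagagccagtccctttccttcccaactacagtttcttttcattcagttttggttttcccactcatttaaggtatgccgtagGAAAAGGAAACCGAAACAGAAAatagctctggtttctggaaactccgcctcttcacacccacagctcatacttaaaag
Over 250 bases before the start, the motif lay on either strand in 8 of the 12 promoters given for the 19 members higher in PD-L1 over PBS (66.7%). It lay in 4 of 16 given for the 18 members not past 1.5 (25.0%), and these 4 were Ifit1, Rsad2, Stat2 and Slfn8. Among all measured genes it lay in 213 of 6046 promoters (3.52%). Members with no promoter in the table included Ifi27l2a, Rtp4, Zbp1, Parp14, Oas2, Dhx58, Usp18 and Ly6a. A match is a description of letters and not a measured binding site.

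The interferon genes were spread over most B cells of PD-L1. In cells thinned to 1000 UMIs, type I interferon genes gave a mean of 2.65 UMIs per B cell (SD between cells 2.34) in AI-Exo, 4.84 (SD 3.58) in PD-L1 and 2.59 (SD 2.33) in PBS. The median was 2 UMIs in AI-Exo, 4 in PD-L1 and 2 in PBS. B cells with none of these UMIs made up 13.5% (12.1% to 14.9%) in AI-Exo, 4.60% (3.56% to 5.84%) in PD-L1 and 13.9% (11.8% to 16.1%) in PBS. The whole distribution was thus shifted in PD-L1, and those of AI-Exo and PBS nearly coincided. B cells with 5 or more of these UMIs made up 15.5% in AI-Exo, 45.9% in PD-L1 and 16.8% in PBS. T cells of the same libraries, taken as cells with at least 3 Cd3 UMIs and no UMI of Cd79a, Cd79b or Ms4a1, had means of 4.62 UMIs in AI-Exo, 5.13 in PD-L1 and 4.11 in PBS. T cells with none of these UMIs made up 7.57% in AI-Exo, 15.7% in PD-L1 and 16.5% in PBS, so that AI-Exo was lowest by this share. The T cells may differ in kind between libraries, here and where they are used below. Markers of immature T-lineage cells summed to 16.9 CPM in AI-Exo, 265 CPM in PD-L1 and 206 CPM in PBS over cells outside the B cell rule. The definition of T cells used here does not leave such cells out. Over all cells outside the B cell rule, the list had a median log2 ratio of 0.63 with 20 members higher in PD-L1 over PBS, and 0.07 in AI-Exo over PBS. The difference was thus also found in that pool. It mixes other cell types in shares that differ between libraries, and it holds candidate B cells that the exclusions dropped.

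**Figure D3:**
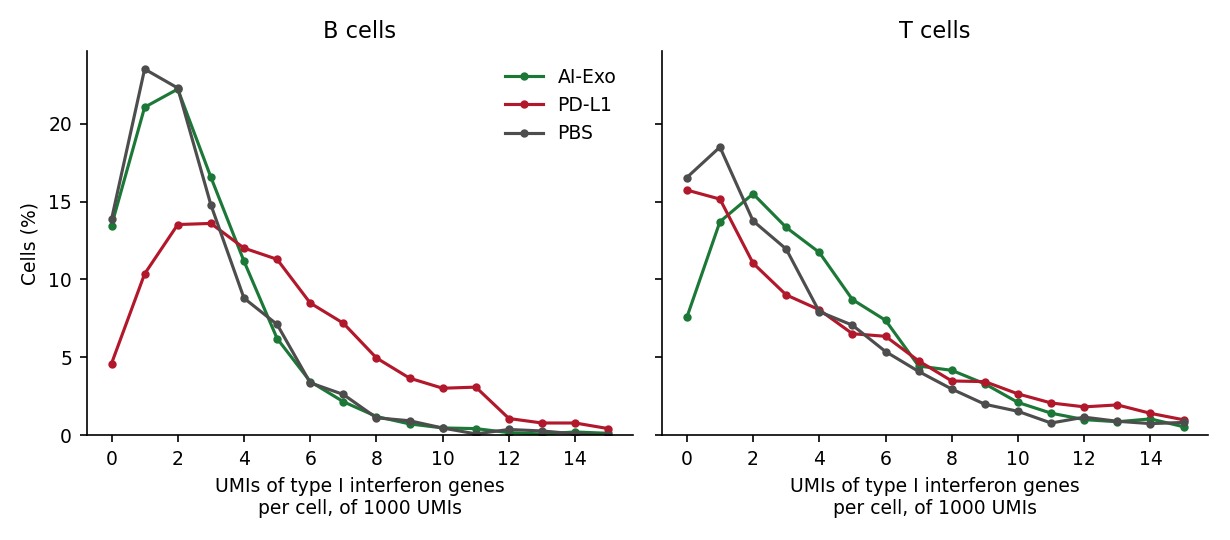
Percent of B cells and of T cells (y) by the number of type I interferon UMIs per cell after thinning to 1000 UMIs (x), in the AI-Exo, PD-L1 and PBS libraries. In B cells the PD-L1 curve peaks further right, with 4.60% of cells at 0 against 13.5% in AI-Exo and 13.9% in PBS. In T cells 7.57% were at 0 in AI-Exo, 15.7% in PD-L1 and 16.5% in PBS.

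The list stood above 0 in PD-L1 over PBS in every cluster and light chain type of B cells. Summed over the list, the log2 ratio of PD-L1 over PBS ran from 0.32 in B5 to 1.37 in B7 over the 11 clusters, though B5 had 12 PBS cells and B10 had 5 PD-L1 cells. AI-Exo over PBS ran from -0.21 in B5 to 0.25 in B1. B cells with an Ighd UMI, a mark of naive cells, had 0.90 for PD-L1 over PBS, and those without had 0.73. Kappa cells had 0.86 and lambda cells 0.85. Ifi27l2a alone ran from 0.37 in B8 to 1.83 in B5 for PD-L1 over PBS.

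Fewer genes induced by interferon gamma stood higher in PD-L1. Of 34 genes, 29 were measured, with a median log2 ratio of 0.28 for PD-L1 over PBS, 6 higher and 1 lower, against 0.803% and 1.25% of all genes. For AI-Exo over PBS the median was 0.08, with 0 higher and 1 lower, against 0.474% and 1.03%. The counts were 5 higher and 0 lower for PD-L1 over PBS, and 0 and 0 for AI-Exo over PBS, when B8 and B10 were left out. The higher genes included the GTPases Ifi47, Irgm1, Tgtp2, Gbp4 and Gbp2. Ifi47 stood at 18.7 CPM in AI-Exo, 41.4 CPM in PD-L1 and 16.2 CPM in PBS, and the log2 ratio of Irgm1 for PD-L1 over PBS was 0.80. Tgtp2 has the near copy Tgtp1, so its value is uncertain. Cxcl10, a chemokine for activated T cells, went the other way with 57.5 CPM in AI-Exo, 29.4 CPM in PD-L1 and 92.9 CPM in PBS. Its UMIs lay by at least 63.7% in the top 1% of cells in each library, and without B8 and B10 its log2 ratio for PD-L1 over PBS was -0.48, no longer past 1.5. Psmb8, an immunoproteasome subunit, stood at 281 CPM in AI-Exo, 312 CPM in PD-L1 and 267 CPM in PBS.

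Dusp16, a phosphatase of the kinases Jnk and p38, was the gene outside these lists with the largest spread-out difference in PD-L1 over PBS. It stood at 154.8 CPM (147 to 162) in AI-Exo, 255 CPM (243 to 269) in PD-L1 and 104.7 CPM (95.4 to 115) in PBS, and no interval overlapped another. Its log2 ratio was 1.21 for PD-L1 over PBS and 0.52 for AI-Exo over PBS, the second of which did not pass 1.5. In thinned cells, 12.8% of B cells in AI-Exo, 21.1% in PD-L1 and 8.43% in PBS had a Dusp16 UMI, and unthinned 36.8% in AI-Exo, 53.6% in PD-L1 and 28.6% in PBS. Of the Toll-like and innate sensing genes, 12 measured members had a median of -0.03 for AI-Exo over PBS with none called, against 1.5% of all genes. Their median for PD-L1 over PBS was 0.00 with 2 higher, against 0.803% of all genes, Irf7 and Tlr7, the RNA sensor of B cell autoimmunity. Tlr7 stood at 24.6 CPM in AI-Exo, 46.0 CPM in PD-L1 and 26.2 CPM in PBS, and its log2 ratio for PD-L1 over PBS was 0.63 in all B cells and 0.50 without B8 and B10.

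Many other genes at the high end are known from other cell types, and their UMIs came from few B cells. Gzma, a killer cell protease, stood at 162 CPM in AI-Exo, 66.3 CPM in PD-L1 and 3.33 CPM in PBS, with 95.5% of its UMIs in AI-Exo and 95.7% in PD-L1 in the top 1% of cells. Its log2 ratio for AI-Exo over PBS was 3.69, and 1.19 without B8 and B10. Ccl5, a chemokine of killer and memory T cells, stood at 287 CPM in AI-Exo, 78.1 CPM in PD-L1 and 28.7 CPM in PBS, with log2 ratios of 2.94 for AI-Exo over PBS and 1.43 without B8 and B10. Mgp, a matrix protein gene, stood at 121 CPM in AI-Exo, 0.845 CPM in PD-L1 and 0.889 CPM in PBS, and 93.7% of its AI-Exo UMIs lay in 1 cell. Its log2 ratio for AI-Exo over PBS was 3.59, and 0.20 without B8 and B10. Natural killer cell markers, 6 genes that include Gzma itself, summed to 207 CPM in AI-Exo, 86.2 CPM in PD-L1 and 7.56 CPM in PBS. Without B8 and B10 they summed to 30.8 CPM in AI-Exo, 6.90 CPM in PD-L1 and 4.83 CPM in PBS. Gzma made up most of the sums over all B cells in AI-Exo and PD-L1, so these sums largely repeat it. Alveolar macrophage markers, mostly Chil3 (given below), summed to 235 CPM in AI-Exo, 70.0 CPM in PD-L1 and 115 CPM in PBS. Fibroblast markers summed to 54.9 CPM in AI-Exo, 0.507 CPM in PD-L1 and 0.889 CPM in PBS. The part of cells of these types in the result was not tested. The remaining such genes were the alveolar macrophage gene Chil3, at 180 CPM in AI-Exo, 53.8 CPM in PD-L1 and 95.8 CPM in PBS, the tetraspanin gene Cd9, at 150.1 CPM in AI-Exo, 60.9 CPM in PD-L1 and 65.1 CPM in PBS, and the lysosomal protease gene Ctsd, at 88.8 CPM in AI-Exo, 53.1 CPM in PD-L1 and 42.7 CPM in PBS. Without B8 and B10 their log2 ratios for AI-Exo over PBS were 0.01 for Chil3, -0.03 for Cd9 and 0.17 for Ctsd.

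The neutrophil gene S100a9 stood at 78.3 CPM in AI-Exo, 50.5 CPM in PD-L1 and 29.1 CPM in PBS. By the rough limits given above, free RNA could add 50.02 CPM in AI-Exo, 47.8 CPM in PD-L1 and 25.6 CPM in PBS. Neutrophil markers, which include S100a9, summed to 131 CPM in AI-Exo, 82.1 CPM in PD-L1 and 57.3 CPM in PBS. Csf3r and G0s2 are 0 by the rule, and the part of these markers in the result was not tested. Monocyte markers summed to 557 CPM in AI-Exo, 582 CPM in PD-L1 and 534 CPM in PBS. Macrophage markers other than C1q, which is 0 by the rule, summed to 207 CPM in AI-Exo, 285 CPM in PD-L1 and 362 CPM in PBS. T cell markers summed to 23.97 CPM in AI-Exo, 32.3 CPM in PD-L1 and 28.7 CPM in PBS, with the 3 Cd3 genes at 0 by the rule. Plasmacytoid dendritic cell markers, which include Bst2 and Tcf4 that B cells express, summed to 410 CPM in AI-Exo, 545 CPM in PD-L1 and 419 CPM in PBS.

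**Figure D4:**
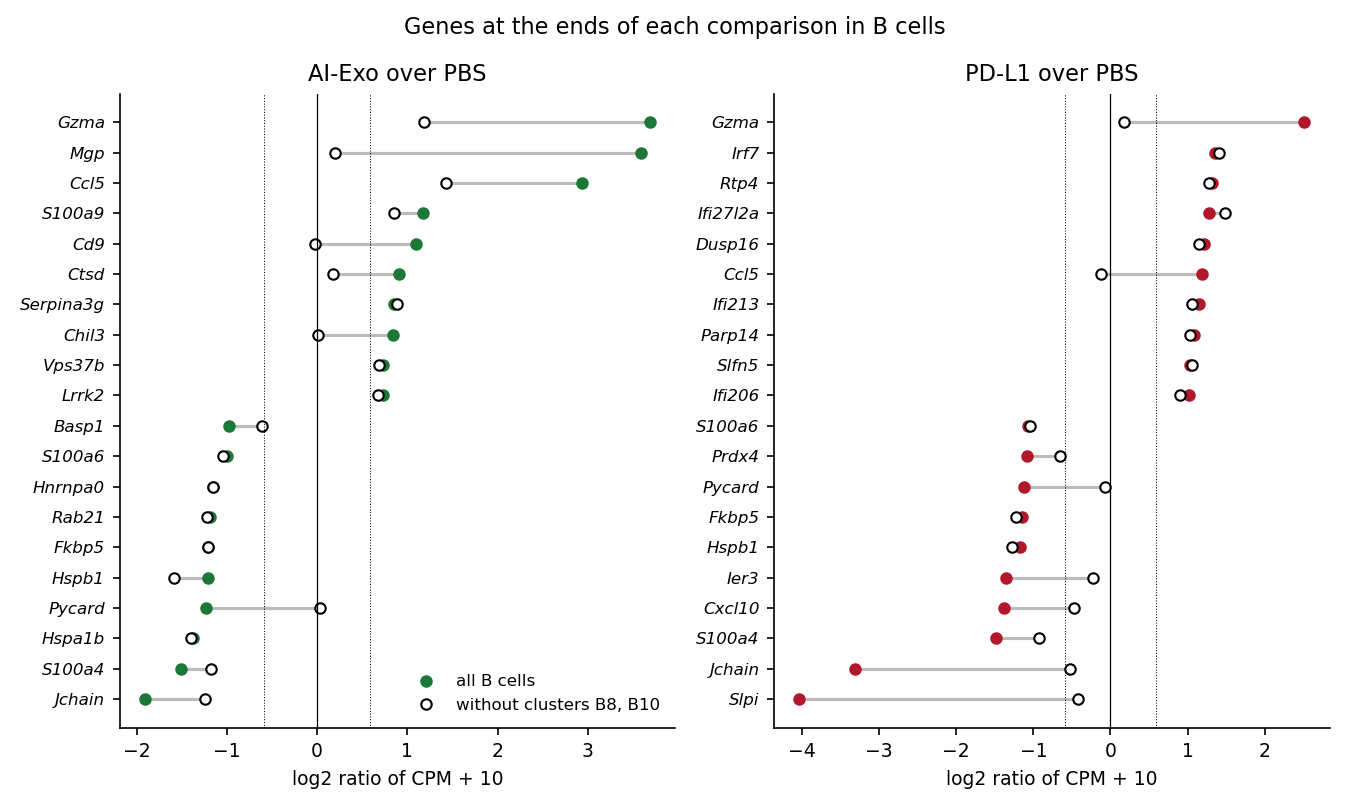
Log2 ratio of CPM + 10 (x) for the 10 highest and 10 lowest genes of AI-Exo over PBS (left) and PD-L1 over PBS (right) in all B cells (filled) and without clusters B8 and B10 (open); dotted lines mark a ratio of 1.5. Without the clusters Gzma, Ccl5 and Mgp move far toward 0, Mgp to 0.20 against 3.59 in all B cells, while Irf7, Rtp4 and Ifi27l2a hardly move.

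Genes that stood higher in AI-Exo than in PBS and were spread over many B cells were fewer. Vps37b, a subunit of the ESCRT-I sorting complex, stood at 374 CPM (362 to 385) in AI-Exo, 342 CPM (328 to 358) in PD-L1 and 220.4 CPM (207 to 235) in PBS, a log2 ratio of 0.74 for AI-Exo over PBS. Lrrk2, a kinase abundant in B cells, stood at 322 CPM in AI-Exo, 243 CPM in PD-L1 and 190.2 CPM in PBS, a log2 ratio of 0.73. Serpina3g, an inhibitor of cysteine cathepsins, stood at 71.2 CPM in AI-Exo, 71.2 CPM in PD-L1 and 35.1 CPM in PBS, log2 ratios of 0.85 in both comparisons with PBS. Without B8 and B10 the ratios of AI-Exo over PBS were 0.69 for Vps37b, 0.68 for Lrrk2 and 0.89 for Serpina3g. All 3 genes were thus higher in AI-Exo than in PBS beyond those clusters. Vps37b was a leading gene of B6, the largest cluster in AI-Exo, and the part of that cluster in its difference was not tested.

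The naive cell genes Ccr7 and Satb1 also stood higher in AI-Exo. Of 19 measured follicular naive genes, 2 were higher in AI-Exo over PBS with a median of 0.21, and 1 in PD-L1 over PBS with a median of 0.11, against 0.474% and 0.803% of all genes. Ccr7, the receptor that guides lymphocytes to T cell zones, stood at 558 CPM (544 to 573) in AI-Exo, 580.1 CPM (561 to 600) in PD-L1 and 350.2 CPM (333 to 368) in PBS. Its log2 ratios were 0.66 for AI-Exo over PBS and 0.71 for PD-L1 over PBS. Over the clusters the AI-Exo over PBS ratio ran from -0.14 in B8 to 1.05 in B5, which had 12 PBS cells. It passed 1.5 only in B5 and in B7 (0.94). In B0, B1, B2, B3, B4, B6 and B9 it ran from 0.19 to 0.56. The PD-L1 over PBS ratio likewise passed 1.5 only in B5 (0.77) and B7 (1.03). Satb1, a chromatin organiser of lymphocytes, stood at 722 CPM in AI-Exo, 652 CPM in PD-L1 and 456 CPM in PBS, with log2 ratios of 0.65 for AI-Exo over PBS and 0.51 for PD-L1 over PBS. For both genes PBS was the lowest library. Ccr7 was a leading gene of B4 and Satb1 of B6, and the part of the mix of clusters in these differences was not tested. Fcer2a (Cd23), an IgE receptor of follicular cells, stood at 293 CPM in AI-Exo, 257 CPM in PD-L1 and 240.2 CPM in PBS, and Cxcr5, the receptor for follicle entry, at 237 CPM in AI-Exo, 244 CPM in PD-L1 and 218 CPM in PBS, neither past 1.5.

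Several inducible heat shock genes were lower in B cells of AI-Exo than in those of PBS. Of 17 measured heat shock and stress genes, 5 were lower in AI-Exo over PBS, against 1.03% of all genes, with a median log2 ratio of -0.38. In PD-L1 over PBS 2 were lower, against 1.25%, with a median of -0.12. In AI-Exo over PBS 4 members lay above 0, the highest being Ddit3 at 0.38. Hspa1b, an inducible Hsp70, stood at 202 CPM (194 to 211) in AI-Exo, 415 CPM (399 to 432) in PD-L1 and 543 CPM (522 to 565) in PBS. Its near-identical copy Hspa1a stood at 466 CPM in AI-Exo, 612 CPM in PD-L1 and 878 CPM in PBS, so the split between them is uncertain. The order AI-Exo, PD-L1, PBS from low to high was the same for both. Hsph1, an Hsp110, stood at 140.5 CPM in AI-Exo, 181 CPM in PD-L1 and 248 CPM in PBS. Dnajb1, an Hsp40 partner of Hsp70, stood at 120.1 CPM in AI-Exo, 116 CPM in PD-L1 and 208 CPM in PBS, and Hspb1, a small heat shock protein, at 48.2 CPM in AI-Exo, 50.2 CPM in PD-L1 and 125 CPM in PBS. Hspa8, the constitutive Hsp70, differed little, with 808 CPM in AI-Exo, 944 CPM in PD-L1 and 821 CPM in PBS. In cells outside the rule the list had a median of -0.18 in AI-Exo over PBS with 3 lower and Hspa1b at -1.44, close to its -1.38 in B cells.

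Other genes stood lower in both other libraries than in PBS. Fkbp5, a cochaperone of the glucocorticoid receptor that glucocorticoids induce, stood at 19.1 CPM in AI-Exo, 20.5 CPM in PD-L1 and 57.3 CPM in PBS, log2 ratios of -1.21 for AI-Exo over PBS and -1.14 for PD-L1 over PBS. Ptpn22, a phosphatase that restrains antigen receptor signalling, stood at 58.8 CPM in AI-Exo, 62.5 CPM in PD-L1 and 121 CPM in PBS, log2 ratios of -0.93 for AI-Exo over PBS and -0.86 for PD-L1 over PBS. In both genes AI-Exo and PD-L1 lay close together and under PBS. In all cells outside the B cell rule the same log2 ratios were -1.51 and -0.55 for Fkbp5, and 0.23 and -0.25 for Ptpn22. Those cells mix other cell types and hold candidate B cells that the exclusions dropped. Ptpn22, itself no coreceptor, was 1 of 15 measured genes in the list of inhibitory coreceptors, of which Fcrl5 was also lower in AI-Exo over PBS. The list thus had 2 lower in AI-Exo over PBS and 1 in PD-L1 over PBS, against 1.03% and 1.25% of all genes. Its medians were -0.10 for AI-Exo over PBS and -0.04 for PD-L1 over PBS. Fcrl5, an inhibitory Fc receptor-like protein, stood at 16.9 CPM in AI-Exo, 32.3 CPM in PD-L1 and 32.2 CPM in PBS.

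The calcium-binding proteins S100a6 and S100a4, high in B-1 and memory cells, were lower as well when summed over all B cells. S100a6 stood at 364 CPM in AI-Exo, 345 CPM in PD-L1 and 735 CPM in PBS, log2 ratios of -0.99 for AI-Exo over PBS and -1.07 for PD-L1 over PBS. In thinned cells, 8.46% of B cells in AI-Exo, 7.19% in PD-L1 and 9.36% in PBS had an S100a6 UMI (unthinned 19.4% in AI-Exo, 15.9% in PD-L1 and 18.1% in PBS), against 53.1% of T cells in AI-Exo, 31.3% in PD-L1 and 34.5% in PBS. The top 1% of B cells held 44.9% of its UMIs in AI-Exo, 54.9% in PD-L1 and 40.4% in PBS. Within B9, a cluster led by S100a6, it stood at 2177 CPM in AI-Exo, 1984 CPM in PD-L1 and 3464 CPM in PBS. In B0, B1, B2, B3, B4 and B6 its log2 ratio for AI-Exo over PBS ran from -0.35 to 0.64. For PD-L1 over PBS it ran from -0.36 to 0.17 in these clusters. The drop was thus not found in every cluster. S100a4 stood at 55.2 CPM in AI-Exo, 56.6 CPM in PD-L1 and 176 CPM in PBS, with at least 47.1% of its UMIs in the top 1% of cells in each library. Of 10 measured B-1 cell genes, 3 were lower in AI-Exo over PBS with a median of -0.25, and 3 in PD-L1 over PBS with a median of -0.40, against 1.03% and 1.25% of all genes. The counts were 2 and 2 without B8 and B10. Of 12 memory and age-associated genes, 1 was lower in AI-Exo over PBS with a median of -0.03, and 2 in PD-L1 over PBS with a median of -0.08, against the same shares. Those in PD-L1 were the intermediate filament gene Vim, at 410.2 CPM in AI-Exo, 277 CPM in PD-L1 and 525 CPM in PBS, and the Fc receptor chain Fcer1g, a leading gene of B8. Without B8 and B10 their log2 ratios for PD-L1 over PBS were -0.87 for Vim and -0.35 for Fcer1g.

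Plasma cell genes were lower outside PBS, and few cells set the values. Of 19 measured, 8 were lower in AI-Exo over PBS with a median of -0.50, and 13 in PD-L1 over PBS with a median of -0.70, against 1.03% and 1.25% of all genes. Without B8 and B10 the counts were 1 and 0 and the medians -0.08 and -0.06. Jchain, which links secreted IgA and IgM, stood at 388 CPM in AI-Exo, 141 CPM in PD-L1 and 1484 CPM in PBS, with at least 89.0% of its UMIs in the top 1% of cells. Tnfrsf17, the survival receptor of plasma cells, stood at 10.3 CPM in AI-Exo, 6.25 CPM in PD-L1 and 37.6 CPM in PBS. Mzb1, a chaperone of antibody assembly, stood at 518 CPM in AI-Exo, 508 CPM in PD-L1 and 848 CPM in PBS. Slpi, a secreted protease inhibitor, stood at 386 CPM in AI-Exo, 24.5 CPM in PD-L1 and 556 CPM in PBS, but 1 cell held 71.9% of its UMIs in AI-Exo and 1 cell 47.4% in PBS. Pycard, the inflammasome adaptor, stood at 126 CPM in AI-Exo, 137 CPM in PD-L1 and 309 CPM in PBS, and its ratio for AI-Exo over PBS was -1.23 in all B cells and 0.03 without B8 and B10. Prdx4, a peroxiredoxin of the endoplasmic reticulum, had log2 ratios of -0.77 for AI-Exo over PBS and -1.08 for PD-L1 over PBS. Ier3, an early response gene, stood at 25.6 CPM in AI-Exo, 16.1 CPM in PD-L1 and 56.9 CPM in PBS, and its ratio for PD-L1 over PBS was -1.36 in all B cells and -0.23 without B8 and B10.

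Antibody-rich cells were few in each library. Cells with at least 10% of their UMIs from antibody genes numbered 8 of 2323 in AI-Exo, 3 of 1393 in PD-L1 and 13 of 1068 in PBS. They held 31.7% of all antibody UMIs of B cells in AI-Exo, 12.5% in PD-L1 and 54.1% in PBS. The median B cell spent a like share of its UMIs on antibody genes, 1.06% in AI-Exo, 1.19% in PD-L1 and 1.21% in PBS. By the heavy chain with most UMIs, in cells with at least 3 heavy chain UMIs, 20 of 2207 cells were class-switched in AI-Exo (0.906%, 0.554% to 1.40%), 12 of 1284 in PD-L1 (0.935%, 0.484% to 1.63%) and 25 of 976 in PBS (2.56%, 1.66% to 3.76%). Most cells in every library were thus of the IgM or IgD type. IgM led in 91.8% of these cells in AI-Exo, 92.6% in PD-L1 and 90.5% in PBS. Ighm RNA stood at 1708 CPM in AI-Exo, 2001 CPM in PD-L1 and 1972 CPM in PBS. IgA cells numbered 8 in AI-Exo, 6 in PD-L1 and 13 in PBS. In T cells, which make no antibody, 6.55% of cells in AI-Exo, 11.2% in PD-L1 and 8.74% in PBS had at least 3 heavy chain UMIs, almost all of Ighm, against 95.01% of B cells in AI-Exo, 92.2% in PD-L1 and 91.4% in PBS. The T cells were deeper, with medians of 4978.5 UMIs in AI-Exo, 4946 in PD-L1 and 4759.5 in PBS. Ighg2b and Ighg2c resemble each other, so their separate counts are uncertain.

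Lambda chains were least frequent in AI-Exo. They led over kappa in 16.8% (15.3% to 18.3%) of B cells in AI-Exo, 22.7% (20.5% to 25.0%) in PD-L1 and 20.9% (18.5% to 23.4%) in PBS. An Ighd UMI was found in 77.9% of B cells in AI-Exo, 71.2% in PD-L1 and 69.2% in PBS, at unequal depth. In thinned cells the shares were 39.1% in AI-Exo, 34.1% in PD-L1 and 35.5% in PBS. The libraries read the 3′ end of RNA, and few cells showed a variable segment. Igkv1-117 was the most frequent kappa segment in each library, in 41 of 196 assigned cells in AI-Exo (20.9%), 26 of 120 in PD-L1 (21.7%) and 19 of 115 in PBS (16.5%), although similar segments may share reads.

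Lists of genes that define the B cell state had medians near 0. None of 20 measured B cell identity genes, 25 B cell receptor signalling genes, 16 MHC class II genes, 20 MHC class I genes, 13 costimulation genes or 19 NF-kappaB genes was past 1.5 in either comparison with PBS. Of all measured genes, 1.5% were past it in AI-Exo over PBS and 2.05% in PD-L1 over PBS. At those shares few members of such lists would be called, so the lack of calls alone says little. The medians for AI-Exo over PBS were 0.04 for identity, 0.11 for receptor signalling, 0.14 for class II, 0.05 for class I, -0.02 for costimulation and 0.19 for NF-kappaB. Those for PD-L1 over PBS were 0.09 for identity, 0.14 for receptor signalling, 0.07 for class II, 0.14 for class I, 0.03 for costimulation and 0.14 for NF-kappaB. Cd74, the invariant chain of class II, stood at 7418 CPM in AI-Exo, 6906 CPM in PD-L1 and 6701 CPM in PBS. Cd274, which encodes the ligand PD-L1, stood at 437 CPM in AI-Exo, 493 CPM in PD-L1 and 469 CPM in PBS, so its RNA differed little between libraries. Cd86, a costimulatory ligand, stood at 469 CPM in AI-Exo, 443 CPM in PD-L1 and 358 CPM in PBS, and Cd40, the receptor for T cell help, at 46.6 CPM in AI-Exo, 53.2 CPM in PD-L1 and 47.6 CPM in PBS. Icosl, the ligand of Icos, stood at 47.1 CPM in AI-Exo, 48.8 CPM in PD-L1 and 45.8 CPM in PBS. Cd80 stood at 11.9 CPM in AI-Exo, 14.7 CPM in PD-L1 and 21.1 CPM in PBS.

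The early activation genes had medians of 0.02 for AI-Exo over PBS and 0.12 for PD-L1 over PBS over 25 members. Ccr7, which is in this list as well as among the naive genes, was higher in both comparisons, and Fos was lower in AI-Exo over PBS. Beside this list and those below, 0.474% of all genes were higher and 1.03% lower in AI-Exo over PBS. In PD-L1 over PBS these shares were 0.803% and 1.25%. Fos, an immediate early factor, stood at 1369 CPM in AI-Exo, 1965 CPM in PD-L1 and 2253 CPM in PBS, a log2 ratio of -0.71 for AI-Exo over PBS and -0.20 for PD-L1 over PBS. The surface marker Cd69 stood at 641 CPM in AI-Exo, 708 CPM in PD-L1 and 642 CPM in PBS. Of the 25 members, 13 lay above 0 in AI-Exo over PBS and 19 in PD-L1 over PBS. In AI-Exo over PD-L1, 2 of the 25 lay above 0, with a median of -0.19 and none past 1.5. Marginal zone genes (12 measured) had medians of 0.05 for AI-Exo over PBS and -0.08 for PD-L1 over PBS, with Cd9 higher and Mzb1 lower in the first and Mzb1 lower in the second. Neither gene was past 1.5 without B8 and B10, with Mzb1 at -0.25 for AI-Exo over PBS and -0.20 for PD-L1 over PBS. Their complement receptor Cr2 stood at 99.2 CPM in AI-Exo, 119 CPM in PD-L1 and 90.9 CPM in PBS. Germinal centre genes (8 measured) had medians of -0.27 for AI-Exo over PBS, with Eaf2 and the membrane protein gene Basp1 lower, and -0.07 for PD-L1 over PBS, with Eaf2 lower. With B8 and B10 left out, Eaf2 stood at -0.25 for AI-Exo over PBS and -0.12 for PD-L1 over PBS, neither past 1.5, and Basp1 at -0.61 for AI-Exo over PBS. Immature and precursor genes (9 measured) had medians of -0.22 for AI-Exo over PBS, with the Wnt pathway factor Lef1 lower, and -0.11 for PD-L1 over PBS.

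Cytokine and regulatory genes (10 measured) had medians of 0.02 for AI-Exo over PBS, with Ccl5 and Cd9 higher, and -0.06 for PD-L1 over PBS, with Ccl5 higher and Ccl3 and Ccl4 lower. Once B8 and B10 were left out, none of the 3 was past 1.5 in PD-L1 over PBS (Ccl5 -0.13, Ccl3 -0.14, Ccl4 -0.29), and Cd9 stood at -0.03 in AI-Exo over PBS. Beside the lists of this paragraph, 0.474% of all genes were higher and 1.03% lower in AI-Exo over PBS. For PD-L1 over PBS the shares were 0.803% and 1.25%. Il10, the cytokine of regulatory B cells, stood at 4.20 CPM in AI-Exo, 4.73 CPM in PD-L1 and 4.67 CPM in PBS. The BAFF and APRIL survival genes (18 measured) had medians of 0.00 for AI-Exo over PBS and 0.09 for PD-L1 over PBS, with only Tnfrsf17 past 1.5. Its log2 ratios were -1.23 for AI-Exo over PBS and -1.55 for PD-L1 over PBS, and -0.03 and 0.00 without B8 and B10. Tnfrsf13c, the BAFF receptor, stood at 132 CPM in AI-Exo, 173 CPM in PD-L1 and 152 CPM in PBS. The chemokine receptor genes (19 measured) had medians of 0.03 for AI-Exo over PBS and 0.02 for PD-L1 over PBS, with only Ccr7 past 1.5. Complement and Fc receptor genes (9 measured) had medians of -0.05 for AI-Exo over PBS and 0.00 for PD-L1 over PBS, with Fcrl5 lower in the first. Cell division genes (18 measured) had medians of -0.14 for AI-Exo over PBS and -0.13 for PD-L1 over PBS, with Birc5 (survivin), which acts in cell division, lower in the second. The PD-L1 over PBS median was 0.04 and Birc5 stood at 0.03 without B8 and B10. Mki67, a mark of cycling cells, stood at 15.5 CPM in AI-Exo, 16.4 CPM in PD-L1 and 17.6 CPM in PBS.

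Autophagy, named in the series' title, is the lysosomal digestion of a cell's own contents. Of 38 measured autophagy genes, 1 was higher and 0 lower in AI-Exo over PBS, against 0.474% and 1.03% of all genes, with a median of 0.05, and none was past 1.5 in PD-L1 over PBS, with a median of 0.01. The higher gene was Ctsd, whose log2 ratio was 0.91 in all B cells and 0.17 without B8 and B10. Sqstm1, the cargo receptor p62, stood at 151 CPM (143 to 158) in AI-Exo, 147 CPM (137 to 157) in PD-L1 and 186 CPM (174 to 199) in PBS. Map1lc3b, the LC3 protein of autophagosome membranes, stood at 202.4 CPM in AI-Exo, 202.3 CPM in PD-L1 and 229 CPM in PBS. Neither gene was past 1.5. Transcript levels do not measure autophagic activity. Glycolysis genes (19 measured) had medians of -0.16 for AI-Exo over PBS and -0.15 for PD-L1 over PBS. Respiratory chain genes (28 measured) had medians of -0.10 for AI-Exo over PBS and -0.08 for PD-L1 over PBS. None of either list was past 1.5, against 1.5% and 2.05% of all genes in these comparisons.

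**Figure D5:**
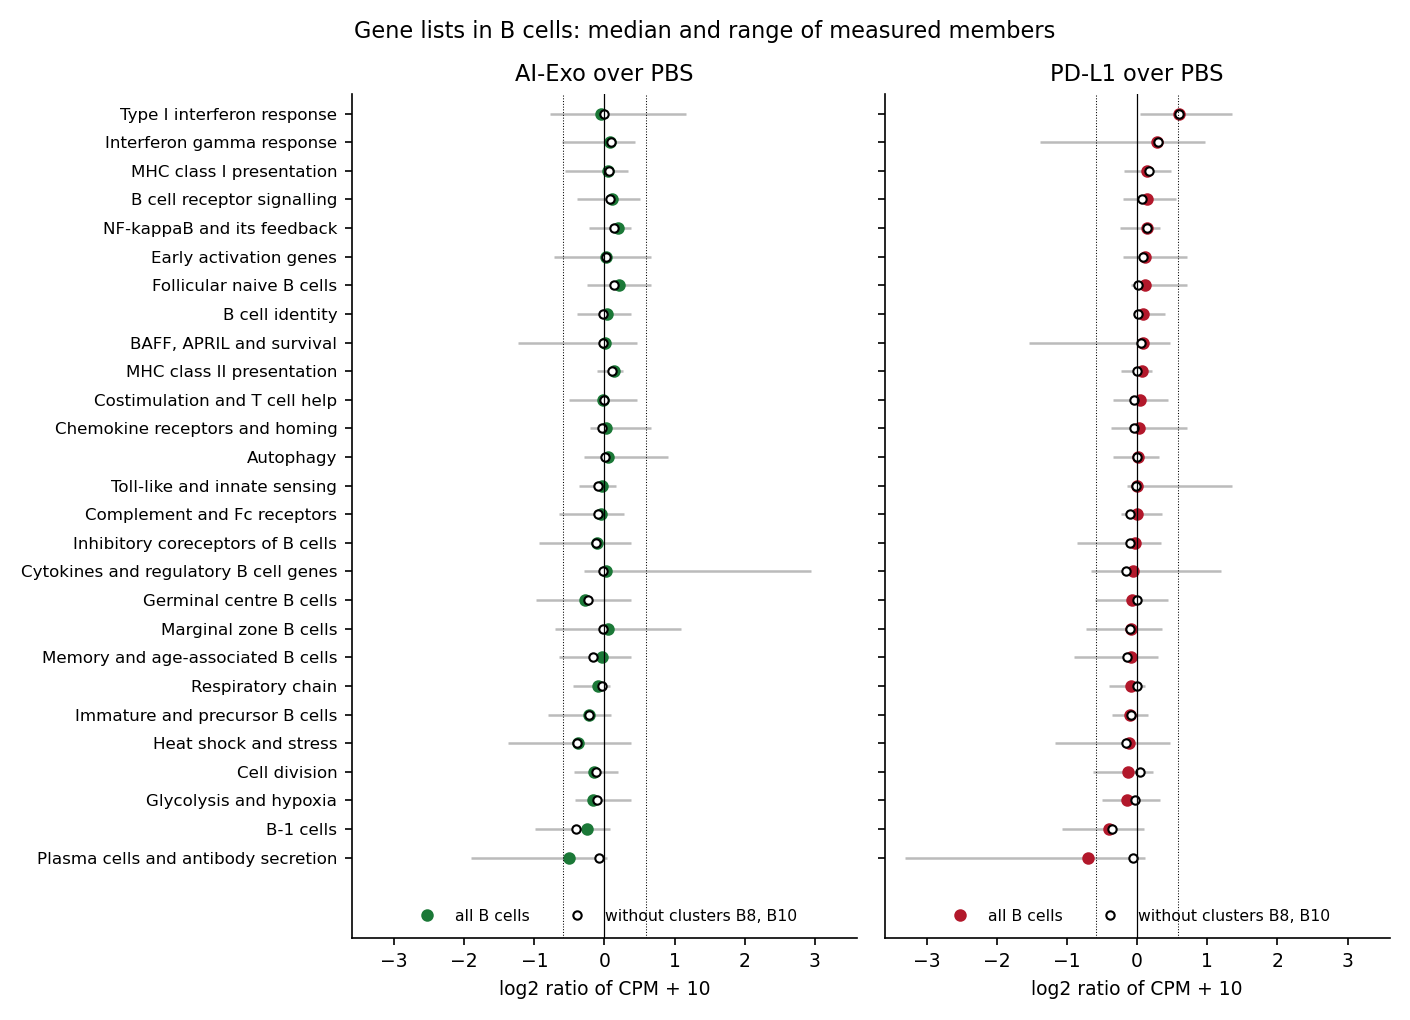
Median (points) and range (grey lines) of log2 ratios of CPM + 10 over the measured members of each gene list in B cells, for AI-Exo over PBS (left) and PD-L1 over PBS (right); filled points are all B cells, open points leave out clusters B8 and B10, and dotted lines mark a ratio of 1.5. Of the lists shown, type I interferon genes in PD-L1 over PBS (0.59) and plasma cell genes in PD-L1 over PBS (-0.70) have medians past 1.5, and the plasma cell median moves to -0.06 without the clusters.

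Set directly against PD-L1, AI-Exo B cells were lower in 59 genes, of which 26 belonged to the interferon lists, and the lowest was Hnrnpa0. Hnrnpa0, an RNA-binding protein, stood at 82.3 CPM (77.0 to 88.0) in AI-Exo, 311 CPM (297 to 325) in PD-L1 and 195 CPM (182 to 208) in PBS, a log2 ratio of -1.80 for AI-Exo over PD-L1. Rab21, a GTPase of early endosomes, stood at 101 CPM (95.2 to 107) in AI-Exo, 232 CPM (220 to 245) in PD-L1 and 243 CPM (229 to 258) in PBS, a log2 ratio of -1.12 for AI-Exo over PD-L1. Both were lowest in AI-Exo, and in cells outside the rule the log2 ratios for AI-Exo over PBS were -0.94 for Hnrnpa0 and -0.93 for Rab21, beside -1.15 and -1.19 in B cells. The other lowest genes of AI-Exo over PD-L1 were Ifi27l2a, Rtp4, Irf7, Ly6c2, Xaf1, Ifi206, Ifi213 and Zbp1. Xaf1, which binds the apoptosis inhibitor Xiap, stood at 17.1 CPM in AI-Exo, 51.7 CPM in PD-L1 and 22.7 CPM in PBS. The highest genes of AI-Exo over PD-L1 were Mgp, Slpi, Ccl5, Chil3, Jchain, Cd9, Gzma, the myeloid lysozyme gene Lyz2, the chemokine gene Ccl6 and Cxcl10, all of them with at least 63.7% of their AI-Exo UMIs in the top 1% of B cells.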

How the data were processed

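The authors deposited raw UMI counts per gene and droplet, made from 10x 3′ v3.1 libraries. Per the file headers they came from Cell Ranger 7.1.0, while the submitters' processing notes name 3.0.2. The genome build was not given. Droplets with at least 500 UMIs and 200 genes and at most 20% mitochondrial UMIs were kept as cells. UMI counts were summed over the B cells of a library and divided by their total (CPM). Intervals are exact Poisson or Clopper-Pearson 95% intervals. Ratios of shares have exact conditional 95% intervals that take both counts as Poisson. The named genes are the 10 highest and 10 lowest ratios of each comparison among genes with at least 50 CPM in the higher library and 50 UMIs over both, without mitochondrial, ribosomal, antigen receptor, haemoglobin, sex-linked and predicted genes. From each list come its extremes, its most abundant members and those past 1.5 times, and a fixed set of single genes was added. The members, gene lists and tests were chosen with earlier results of these data known, so no pattern here is independent support for those results. Scrublet's automatic threshold marked 0 cells in AI-Exo, 1 in PD-L1 and 1 in PBS, so it did not work, and doublets were kept. Leaving out scores of at least 0.15 was tried instead. Leiden clusters used 2000 variable genes, 30 components, 15 neighbours and a resolution of 1. Symbols with several IDs were read at the first ID. Python 3.11.15, numpy 2.4.6, scipy 1.17.1, pandas 2.3.3, scanpy 1.11.5 and matplotlib 3.10.9 were used. The ratios and calls were tested on counts simulated from the pooled B cell profile. That simulation held no differences between cells and did not cover the other steps. Some genes are not reported here.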

Additional observations from a re-analysis of the deposited data

How the results depend on the processing

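Each group is 1 library, so no library could be left out in turn. No paired analysis was possible because each group holds 1 library. The choices concerning B8 and B10, the top 1% of cells, antibody-rich cells, the exclusion clauses and the second random seed were made after seeing the data. Share ratios moved most among cells with no Cd3 UMI, to 1.70 for AI-Exo over PBS and 1.43 for AI-Exo over PD-L1. Counts of genes past 1.5 are given in the order AI-Exo over PBS, PD-L1 over PBS and AI-Exo over PD-L1, beside 114, 156 and 103 in the report. Adding 1 CPM gave 281, 355 and 189, adding 50 CPM gave 42, 48 and 36, and a mean of at least 50 CPM gave 56, 76 and 45, since fewer genes were then tested. The largest cluster alone gave 435, 624 and 347, leaving out each gene's top 1% of cells gave 65, 89 and 62, and leaving out B8 and B10 gave 66, 79 and 65. AI-Exo over PBS had 187 genes with no filter, 174 with CPM outside antibody, mitochondrial and ribosomal genes, 72 with the mean of cell CPM and 253 without the exclusion clauses. With the mean of cell CPM the split of higher and lower genes was 16 and 56 for AI-Exo over PBS, 59 and 50 for PD-L1 over PBS, and 13 and 60 for AI-Exo over PD-L1. Type I interferon genes higher in PD-L1 over PBS numbered 11 with 50 CPM added and 10 at a mean of at least 50 CPM, and otherwise 17 to 26. At a mean of at least 50 CPM only 15 members were measured, with a median log2 ratio of 0.80 for PD-L1 over PBS. Those lower in AI-Exo over PD-L1 numbered 14 and 10 under the same 2 settings. Those higher in AI-Exo over PBS numbered 0 with 50 CPM added, at a mean of at least 50 CPM, without the top 1% of cells, without B8 and B10, and without the exclusion clauses. At 10 or more heavy chain UMIs, class-switched cells made up 1.40% in AI-Exo and 5.45% in PBS, and without the exclusion clauses 1.48% in AI-Exo. Log2 ratios that changed sign were those of Ccl5 for PD-L1 over PBS (-0.064 without high doublet scores, -0.13 without B8 and B10, -0.039 without the exclusion clauses), Pycard for PD-L1 over PBS (0.078 in cells with Ighd and no switched class, 0.070 in the largest cluster) and for AI-Exo over PBS (0.032 without B8 and B10), and Slpi for AI-Exo over PD-L1 (-0.014 in cells with Ighd, -0.26 in the largest cluster). The others were Cd9 for AI-Exo over PBS (-0.045 in the largest cluster, -0.027 without B8 and B10), Cxcl10 for PD-L1 over PBS (0.12 in the largest cluster), Chil3 for AI-Exo over PBS (-0.043 without the top 1% of cells) and Lyz2 for AI-Exo over PD-L1 (-0.012 without B8 and B10). Jchain for AI-Exo over PD-L1 stood at -0.54 in the largest cluster, -0.39 without the top 1% of cells, -0.72 without B8 and B10 and -0.62 without antibody-rich cells, and for PD-L1 over PBS at 0.10 without antibody-rich cells. Beyond what these settings do by construction, the cause was not tested. Genes near 10 CPM rest on few UMIs in PBS, the shallowest set of B cells.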
